A study of Caenorhabditis elegans with 12 samples.

Results

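This comparison sets AMsh glia sorted from che-2(e1033) larvae against AMsh glia sorted from wild type larvae, across all genes of the count table. Its members are the 3 libraries that the table heads C+ and the 3 that it heads W+, which makes 6 of the 12 libraries of the series. The other 6 libraries hold the remaining, dsRed-negative cells of the same cultures and are set beside the AMsh fraction. They also enter the filter, the fit and its estimate of the spread, so the AMsh calls rest on all 12 libraries. Both genotypes carry the sorting reporter F16F9.3pro::dsRed, so the wild type animals (strain OS4079) are transgenic as well, and the che-2(e1033) animals are strain OS11549. Each genotype is represented by 1 strain, and a difference between these strains other than che-2 cannot be told apart from the mutation. Pooled larvae were cultured with bacteria in liquid at 20 °C and collected at L3 and L4, after 36 to 42 h. Sorting gave 168356 to 240125 dsRed-positive events per AMsh sample, 0.1 to 0.4% of all events, and 0.4 to 5 ng of RNA per sample was amplified before sequencing. The cultures carry the codes E30, E35 and E36, and values of a group are always given in this order. Cultures of the genotypes are different animals, and what a code stands for is not given in the sources used here. Libraries of the same code deviated together between the genotypes in the non-AMsh fraction (correlation of the deviations from the group means across genes 0.115 to 0.275) and hardly in the AMsh fraction (0.0141 to 0.0258).

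AMsh glia, the amphid sheath cells, are a left and right pair of glia that wrap the tips of the amphid sensory neurons and secrete proteins into the channel around the cilia. The gene che-2 encodes a component of intraflagellar transport, the movement of protein complexes along the ciliary axoneme that builds and maintains cilia, and che-2 mutants have short, malformed sensory cilia. Cilium mutants of C. elegans are also known to form few dauer larvae, the long-lived alternative to the L3 stage. The study's question is what changes in these glia when the cilia next to them are defective.

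Totals in the AMsh libraries were 20783265 to 23178841 counts in che-2 and 25073137 to 25450178 in wild type, with no overlap (exact permutation test, 2-sided, p = 0.1, the smallest that 3 against 3 allows). Genes with a count numbered 17863, 15711 and 18791 in che-2 and 14101, 17826 and 18210 in wild type. Ribosomal RNA genes took 4.617, 6.877 and 1.725% of the counts in che-2 and 2.681 to 2.869% in wild type. Levels are given as CPM, counts scaled for depth with TMM-adjusted library sizes, and 3 counts, the limit that a count of 0 allows, correspond to 0.108 to 0.169 CPM in these 6 libraries. The 14 AMsh marker genes summed to 739, 3958 and 1772 CPM in che-2 AMsh libraries and to 1244, 4336 and 4453 CPM in wild type AMsh libraries, against 236 to 417 CPM in the non-AMsh libraries. Both E30 AMsh libraries thus had the lowest marker sums of their genotype. Not all markers were enriched by the sort. For daf-6, che-14, lit-1 and ztf-16 the AMsh mean was 0.643 to 1.39 times the non-AMsh mean, and for mls-2 0.691 times in wild type. Among che-2 AMsh libraries, E30 was the highest for daf-6, che-14 and lit-1 and the lowest for ztf-16. Fewer cells of a type and less RNA per cell cannot be told apart in such sorted pools, and the part of the marker level in the results below was not tested.

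The che-2 AMsh libraries held almost no counts for a set of cuticle collagens and small secreted proteins that were present in wild type AMsh libraries, and other genes were at higher levels in che-2. The same collection time is given for all cultures. A difference in developmental stage or dauer content between cultures of the genotypes cannot be told apart from the mutation and was not tested. Of 16690 genes tested, 77 were called at an adjusted p under 0.05 (0.461%), of which 27 rose (0.162%) and 50 fell (0.300%) in che-2. The balance of rises and falls turned under other settings, with 496 higher and 387 lower by DESeq2, 112 higher and 106 lower with the code as a block, and 183 higher and 74 lower without the libraries of code E30. The 50 genes that fell summed to 125, 139 and 133 CPM in che-2 AMsh and to 67474, 23430 and 5247 CPM in wild type AMsh. The 27 genes that rose summed to 805, 1393 and 1092 CPM in che-2 AMsh and to 117, 113 and 108.1 CPM in wild type AMsh. All 77 genes had che-2 and wild type AMsh libraries that did not overlap, as had 2835 of the 16690 tested genes, 1885 of them with che-2 higher. For the falls the background was 5.69%, the 950 genes with all che-2 libraries lower. Of the 77, 76 are protein coding and 1 is a pseudogene, and the median log2 fold change over all tested genes was 0.12.

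The number of calls depended strongly on the libraries and on the form of the test. Among che-2 AMsh libraries, leaving out E36 left 0 calls, E35 left 14 and E30 left 27. Among wild type AMsh libraries, leaving out E35 left 20 and E30 left 35. It was 26 without either che-2 non-AMsh E36 or wild type non-AMsh E35, while every other single omission kept between 63 and 112 calls. Fitting the 6 AMsh libraries alone called 1 gene, the saposin-like gene spp-18, whereas the newer edgeR 4 form of the same test called 240 genes, among them all 77, with 111 higher and 129 lower. Without both E30 AMsh libraries, which have the low marker sums, 27 genes were called, 13 higher and 14 lower. At an unadjusted p under 0.05, 2142 genes (12.8%) differed, 1316 of them higher (7.88%) and 826 lower (4.95%) in che-2. No called gene changed direction in any of 24 alternatives. These reuse AMsh libraries in which no called gene overlapped between the genotypes, so a reversal was hardly possible. A called gene passed in 9 to 23 of the alternatives, with a median of 13, and 0 passed under every omission of a single library. Those that passed in at least 22 were spp-18, T05B4.10, Y43F8A.2, epic-3, F47B8.14, ZK218.5, C16C4.17, F57F4.2 and col-108.

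**Figure D1:**
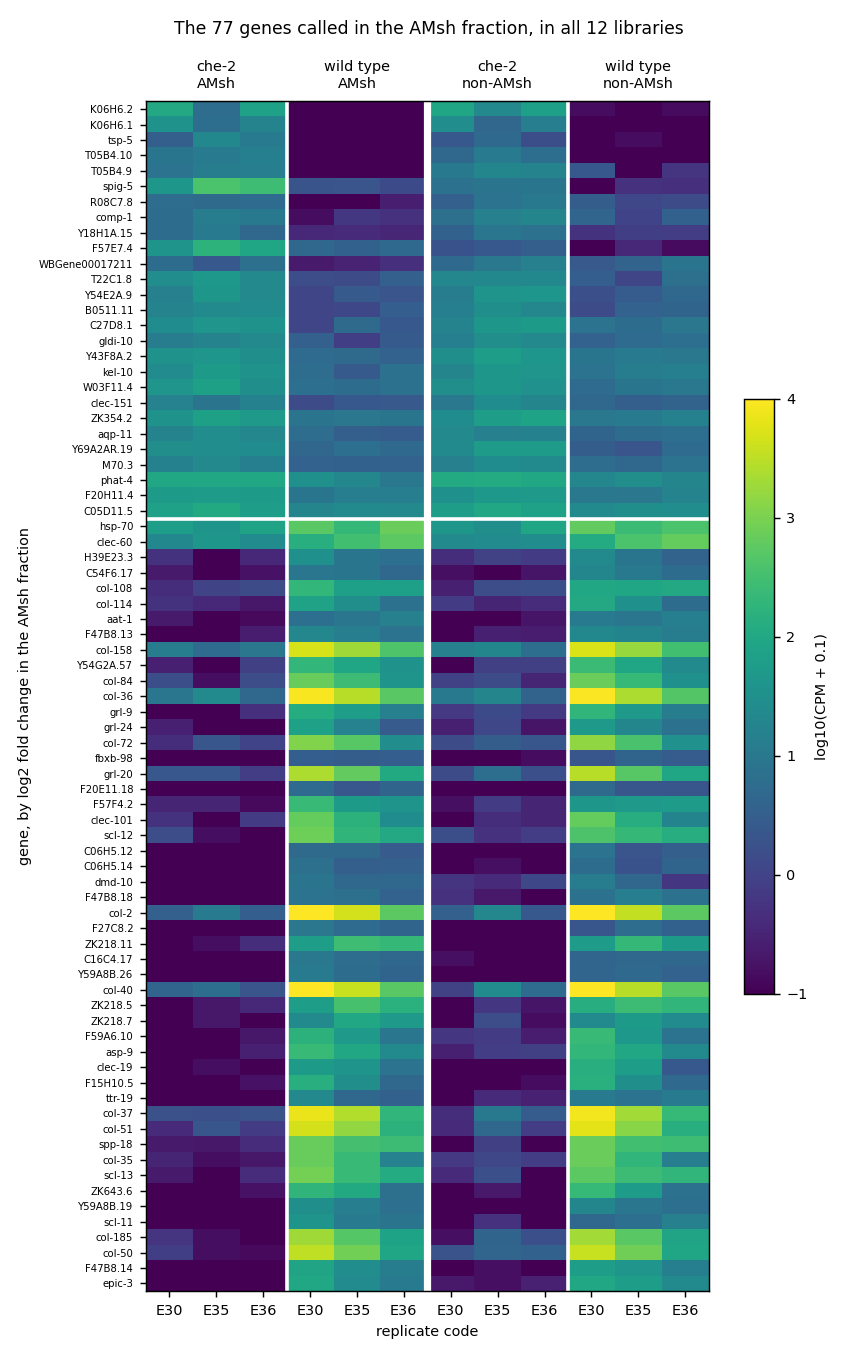
Level of the 77 called genes (rows, ordered by log2 fold change in the AMsh fraction) in all 12 libraries (columns, by replicate code within the 4 groups), as log10(CPM + 0.1) in colour. The upper block holds the 27 genes that rose and the lower block the 50 that fell in che-2 AMsh libraries, and both blocks look alike in the non-AMsh libraries on the right.

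The heat map holds only genes called from these same libraries, so likeness among the 3 cultures of each genotype follows from their selection. It shows that many of the genes that fell were not at a constant level in wild type, with E30 the brightest column and E36 the dimmest.

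The targeted gene che-2 (WBGene00000484) was at 0.669, 12.5 and 4.69 CPM in che-2 AMsh and at 0, 2.18 and 0.666 CPM in wild type AMsh. These ranges overlapped, and the difference did not pass (log2 fold change 2.64, adjusted p = 0.525), so the level of the transcript does not check the labels. None of the 14 AMsh markers was called, 2 were lower at an unadjusted p under 0.05, and their median log2 fold change was -0.47. F16F9.3, whose promoter drives the reporter, was at 73.5, 465 and 257 CPM in che-2 AMsh and at 94.7, 193 and 231.02 CPM in wild type AMsh (adjusted p = 0.705). vap-1, a secreted venom-allergen-like protein of the amphid sheath, was at 52.1, 454 and 146 CPM in che-2 AMsh and at 80.7, 1148 and 1485 CPM in wild type AMsh. The vap-1 ranges overlapped and the difference did not pass (log2 fold change -2.06, adjusted p = 0.375). For mls-2, a homeobox gene, no count was found in che-2 AMsh, against 1.69, 0.33 and 0.499 CPM in wild type AMsh. It had the smallest p of the marker list and did not pass (adjusted p = 0.184).

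The called gene that rose to the highest level was spig-5 (WBGene00008797, chromosome V, 14308485 to 14308841, WBcel235). It was at 44.1, 376 and 277 CPM in che-2 AMsh and at 1.87, 2.02 and 1.21 CPM in wild type AMsh. The libraries of the genotypes did not overlap, as for every called gene (log2 fold change 7.09, SE 0.96, adjusted p = 0.0129). The lowest che-2 library for spig-5, E30, also had the lowest marker sum, and the part of the marker level was not tested. In non-AMsh cells spig-5 was at 7.54, 8.25 and 8.49 CPM in che-2 and at 0, 0.424 and 0.366 CPM in wild type. The mean AMsh level was 28.7 times the non-AMsh level in che-2 and 6.45 times in wild type.

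Of the 9 spig genes, a list added after its values were seen, spig-5 alone was called, 4 were higher and none lower at an unadjusted p under 0.05, and the median log2 fold change was 1.41. The neighbour spig-4 was at 82.5, 509 and 407 CPM in che-2 AMsh and at 0, 3.87 and 4.54 CPM in wild type AMsh. Its libraries did not overlap either, but it did not pass (log2 fold change 6.89, SE 1.34, adjusted p = 0.0509). spig-9, the most abundant member, was at 2279.8, 18799 and 10498 CPM in che-2 AMsh and at 4408, 11038 and 10904 CPM in wild type AMsh. The genotypes overlapped for spig-9 (adjusted p = 0.898), so members of 1 family that the sort enriched had unequal changes. E30 was the lowest library of each genotype for spig-9, as it was for the marker sum.

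F57E7.4 was the other called gene that stood far above the non-AMsh cells in both genotypes, by 42.3 times in che-2 and 40.5 times in wild type. It was at 39.4, 168 and 91.6 CPM in che-2 AMsh and at 4.68, 3.46 and 4.95 CPM in wild type AMsh (log2 fold change 4.51, SE 0.74, adjusted p = 0.0279). In non-AMsh cells it was at 1.74, 2.24 and 3.09 CPM in che-2 and at 0, 0.283 and 0.0407 CPM in wild type. The wild type ratio therefore rests on few non-AMsh counts. tsp-5, a tetraspanin membrane protein gene, was at 3.12, 21.3 and 11.7 CPM in che-2 AMsh and had no count in wild type AMsh, so it was at least 268-fold higher in che-2 (3 counts over the wild type group in place of 0, adjusted p = 0.0225). In che-2 its AMsh level was 4.06 times its non-AMsh level, which was 2.26, 5.13 and 1.5 CPM. These 3 genes were the only rises whose AMsh mean was over 4 times the non-AMsh mean in che-2, while 24 of the 27 rises lay within 2-fold of it. Without both E30 AMsh libraries spig-5 (adjusted p = 0.0199), tsp-5 (0.0361) and F57E7.4 (just under the threshold) still passed.

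The largest group that fell was the cuticle collagens, the structural proteins that the hypodermis secretes into a new cuticle at each molt. Of 170 collagens tested, 13 fell and 0 rose, and 34 were lower and 12 higher at an unadjusted p under 0.05. Over the whole family the median log2 fold change was -0.01, and its sign changed with the scaling (-0.11 with relative log expression, 0.01 with upper-quartile scaling). The 13 genes summed to 34.8, 53.8 and 25.4 CPM in che-2 AMsh and to 59382, 19913 and 2695 CPM in wild type AMsh. That was 0.0318, 0.0268 and 0.0210% of all collagen CPM in che-2 AMsh and 33.5, 17.1 and 2.93% in wild type AMsh. Summed over all collagens the genotypes overlapped, with 109219, 200710 and 120630 CPM in che-2 AMsh and 177399, 116663 and 91851 CPM in wild type AMsh.

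Among the 13, col-2, known as a dauer collagen, was at 3.39, 11.305 and 2.96 CPM in che-2 AMsh and at 13924, 4568 and 548 CPM in wild type AMsh (log2 fold change -10.08, SE 1.82, adjusted p = 0.0374). col-40 was at 4.10, 6.36 and 1.95 CPM in che-2 AMsh and at 11645, 3737 and 519 CPM in wild type AMsh (log2 fold change -10.33, adjusted p = 0.0383). Even the lowest wild type library of these genes was far above every che-2 library. col-37 was at 1.65, 1.57 and 1.84 CPM in che-2 AMsh and at 6987, 2691 and 199 CPM in wild type AMsh, and col-36 at 9.01, 23.5 and 4.73 CPM in che-2 AMsh and 9036, 2943 and 516 CPM in wild type AMsh. col-51 was at 0.312, 2.08 and 0.686 CPM in che-2 AMsh and at 4732, 1550.3 and 165 CPM in wild type AMsh, and col-72 at 0.357, 2.08 and 0.903 CPM in che-2 AMsh and 1133, 502 and 28.1 CPM in wild type AMsh. The remaining called collagens were col-35, col-50, col-84, col-108, col-114, col-158 and col-185. For the 13 genes, the lowest wild type AMsh library was 13.5 (col-72) to 166 times (col-185) the highest che-2 AMsh library.

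The wild type cultures ranked in the same order for nearly all of these collagens. E30 was the highest and E36 the lowest wild type AMsh library for 12 of the 13 collagens, and the ratio of E30 to E36 ran between 3.00 (col-108) and 41.7 (col-35) with a median of 23.6. Over all 50 genes that fell, 39 had E30 highest and E36 lowest in wild type AMsh, against 14.6% of all tested genes, and 33 had this order in wild type non-AMsh, against 15.8%. The order came from the same 3 cultures in both fractions, and 32 genes had it in both. col-108 was the steadiest, at 0.357, 0.956 and 1.30 CPM in che-2 AMsh and 203, 67.0 and 67.8 CPM in wild type AMsh (log2 fold change -7.0, SE 0.85, adjusted p = 0.00959). Without both E30 AMsh libraries 1 collagen was called, without all libraries of code E30 14 fell and 2 rose, and leaving out single libraries gave 0 to 19 falls.

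**Figure D2:**
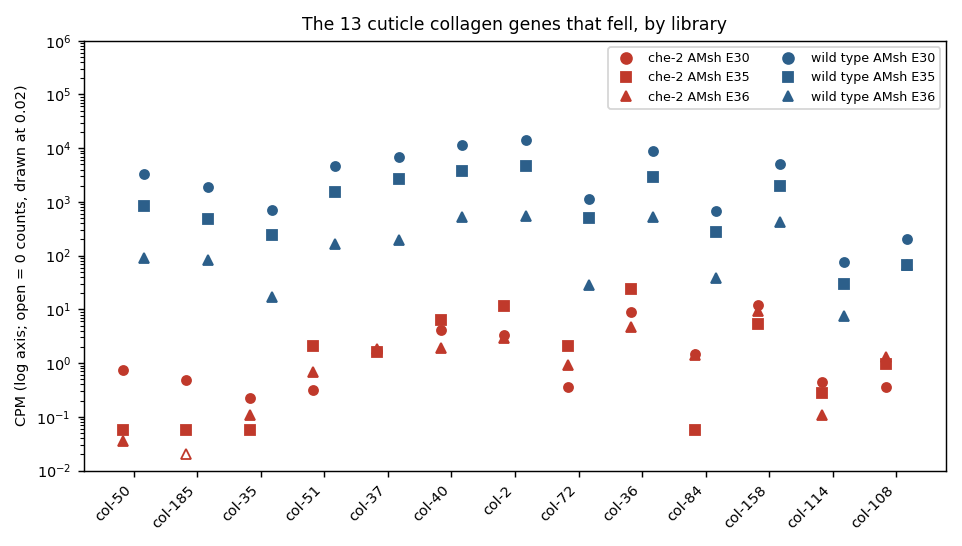
Level in CPM, on a log axis, of the 13 cuticle collagens that fell, in the 3 che-2 AMsh and 3 wild type AMsh libraries (1 point per library, marker shape by replicate code, open points for 0 counts drawn at 0.02). All wild type points lie above all che-2 points of the same gene, and the wild type points spread by up to 41.7 times between E30 and E36.

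The plot of collagen levels shows this spread beside the gap between genotypes. Related lists gave no call. The 6 furrow collagens, which form the circumferential furrows of the cuticle, summed to 1964, 135 and 396 CPM in che-2 AMsh and to 1586, 1718 and 1969 CPM in wild type AMsh. None was called, and che-2 E30 lay with wild type while E35 and E36 lay below it (median log2 fold change -1.31). The 16 molting regulators summed to 2680.1, 321 and 952 CPM in che-2 AMsh and to 1762, 1928 and 2153 CPM in wild type AMsh, with none called. The 7 hypodermal markers summed to 10134, 1380 and 6463 CPM in che-2 AMsh and to 5411, 7208 and 6883 CPM in wild type AMsh, again with none called and with the groups overlapping.

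Genes of other cuticle and secreted protein families fell beside the collagens. Of 57 ground-like and hedgehog-related genes, which encode small cysteine-containing secreted proteins, 3 fell and 0 rose (15 lower and 1 higher at an unadjusted p under 0.05, median log2 fold change -0.73). grl-20 was at 2.14, 2.14 and 0.722 CPM in che-2 AMsh and at 2376, 632 and 107.98 CPM in wild type AMsh (log2 fold change -9.29, adjusted p = 0.0355). grl-9 was at 0, 0 and 0.397 CPM in che-2 AMsh and at 127, 64.1 and 14.8 CPM in wild type AMsh, and grl-24 at 0.178, 0 and 0 CPM in che-2 AMsh and 71.7, 16.2 and 2.66 CPM in wild type AMsh. For all 3 the groups did not overlap and wild type E36 was the lowest wild type library. None of the 3 was called without both E30 AMsh libraries. Of 41 cuticlins and other zona pellucida proteins none was called, and cut-1, which encodes a cuticlin of the dauer alae, came nearest. It was at 0.847, 0 and 0.433 CPM in che-2 AMsh and at 828, 181 and 33.8 CPM in wild type AMsh (log2 fold change -9.62, adjusted p = 0.0533). Of 34 astacin metalloproteases none was called, nas-28 having the smallest p (adjusted p = 0.0967).

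Among the CAP-domain secreted proteins, cysteine-rich proteins related to venom allergens, 3 of 22 fell and 0 rose, and the list's median log2 fold change was -0.34. scl-11 had no count in che-2 AMsh and was at 37.9, 11.2 and 8.32 CPM in wild type AMsh, at least 423-fold lower in che-2 (adjusted p = 0.0321). The neighbours scl-13 and scl-12 on chromosome V fell together. scl-13 was at 0.134, 0 and 0.325 CPM in che-2 AMsh and at 919, 238 and 119.1 CPM in wild type AMsh (log2 fold change -11.28, SE 1.61, adjusted p = 0.0146). scl-12 was at 1.43, 0.0562 and 0 CPM in che-2 AMsh and at 789.9, 188 and 106 CPM in wild type AMsh (log2 fold change -9.49, adjusted p = 0.0279). Without both E30 AMsh libraries scl-12 was the 1 CAP-domain gene called. The dauer and long-life list held 2 falls of 24, the collagens col-2 and col-40, and no rise. Its members scl-1 (adjusted p = 0.0785), hsp-12.6 (0.125), mtl-1 (0.161) and sod-3 (0.192) had lower levels in che-2 AMsh and did not pass.

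spp-18, a saposin-like gene of a family that includes pore-forming antimicrobial proteins, passed in the most alternatives, 23 of 24. It was at 0.134, 0.112 and 0.325 CPM in che-2 AMsh and at 704, 335 and 267 CPM in wild type AMsh (log2 fold change -11.06, SE 1.35, adjusted p = 0.00959). It was the only call among 84 saposin-like, lysozyme and antimicrobial peptide genes. asp-9, which encodes an aspartyl protease, was at 0, 0 and 0.181 CPM in che-2 AMsh and at 233, 97.6 and 24.6 CPM in wild type AMsh (log2 fold change -10.62, adjusted p = 0.0129), and was the only call among 25 aspartyl and cathepsin proteases. Both were also called without both E30 AMsh libraries.

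Of 146 C-type lectins, carbohydrate-binding proteins many of which respond to infection, 3 fell and 1 rose. clec-19 had 1 count over the che-2 AMsh libraries and was at 51.9, 39.2 and 7.91 CPM in wild type AMsh. clec-101 was at 0.446, 0 and 0.686 CPM in che-2 AMsh and at 653, 163 and 27 CPM in wild type AMsh (log2 fold change -9.46, adjusted p = 0.0474). clec-60, known to respond to infection in the intestine, had a smaller fall and was at 21.3, 43.5 and 25.4 CPM in che-2 AMsh and at 142, 308 and 541 CPM in wild type AMsh (log2 fold change -3.46, SE 0.64, adjusted p = 0.0405), and here wild type E36 was the highest library. clec-151 was at 16.1, 8.27 and 16 CPM in che-2 AMsh and at 1.38, 2.31 and 2.37 CPM in wild type AMsh (log2 fold change 2.73, adjusted p = 0.0405). Without both E30 AMsh libraries no C-type lectin was called.

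Single members of other families also fell. hsp-70, a stress-inducible chaperone, was at 63.0, 39.1 and 76.9 CPM in che-2 AMsh and at 529.7, 218 and 704 CPM in wild type AMsh (log2 fold change -3.02, SE 0.57, adjusted p = 0.0432), the only call among 51 heat shock genes, and did not pass without both E30 AMsh libraries (adjusted p = 0.158). ttr-19, a transthyretin-related gene, had no count in che-2 AMsh and was at 22.7, 4.57 and 3.54 CPM in wild type AMsh, at least 226-fold lower. dmd-10, a DM-domain transcription factor gene, had no count in che-2 AMsh and was at 8.29, 4.86 and 4.79 CPM in wild type AMsh, at least 134-fold lower. In non-AMsh cells dmd-10 was at 0.464, 0.295 and 1.13 CPM in che-2 and 12.2, 4.29 and 0.529 CPM in wild type, the only one of the 50 falls whose non-AMsh libraries overlapped.

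In all, 14 of the 50 falls had no count in che-2 AMsh, which made them at least 66.9-fold (fbxb-98, an F-box gene) to 987-fold (epic-3) lower there. epic-3 was at 97.0, 26.1 and 11.4 CPM in wild type AMsh and F47B8.14 at 83.8, 27.6 and 13 CPM, both with an adjusted p of 0.00959. ZK643.6, F15H10.5, clec-19, F59A6.10 and ZK218.7 had 1 to 3 counts over the che-2 AMsh libraries. For F59A6.10, with 3 counts, wild type was 1606 times higher (95% exact counting interval 549 to 7788), and the interval covers counting error only.

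Some called genes lay beside each other on the chromosome. Within 20 kb, 25 of the 77 formed 10 groups, and 7 of these groups were on chromosome V, which held 30 of the 77 calls (39.0%) and 21.7% of the genes tested. The X chromosome held 1 call, col-185, and 13.9% of the genes tested. Of the 10 groups, 7 held only falls, 2 only rises and 1 both. Reads shared between near-identical neighbours cannot be told apart here, and 27 called genes overlap another gene of the table.

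K06H6.2 and K06H6.1 (chromosome V, 585778 to 589646) had the largest rises. K06H6.2 was at 102, 6.02 and 72.1 CPM in che-2 AMsh and had no count in wild type AMsh, at least 1525-fold higher (adjusted p = 0.0129). K06H6.1 was at 35.8, 6.36 and 16.8 CPM in che-2 AMsh and had no count in wild type AMsh either, at least 479.6-fold higher (adjusted p = 0.0279). The flanking genes K06H6.4, nstp-7 and ZK488.6 also had no count in wild type AMsh, and in che-2 AMsh they reached 4.01, 5.39 and 4.59 CPM in E30 and at most 1.26 CPM in the other 2 cultures, without passing (adjusted p between 0.199 and 0.263). In che-2 AMsh E35 was the lowest library for both called genes.

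A second group of rises was T05B4.9, T05B4.10 and phat-4 on chromosome V (4117585 to 4130908). T05B4.10 was at 8.65, 11.2 and 14.4 CPM in che-2 AMsh and T05B4.9 at 7.85, 12.2 and 13.8 CPM, with no count for either in wild type AMsh, at least 275-fold and 269-fold higher in che-2. phat-4, a gene related to pharyngeal gland proteins with toxin-like domains, was at 97.1, 101 and 96.5 CPM in che-2 AMsh and at 32.9, 20.1 and 10.2 CPM in wild type AMsh (log2 fold change 2.22, SE 0.40, adjusted p = 0.0374). T05B4.8, next to them, was at 6.46, 5.57 and 5.45 CPM in che-2 AMsh with no count in wild type AMsh, and did not pass (adjusted p = 0.0732). phat-5 lay between the called genes with overlapping groups, at 4.73, 37.5 and 14.6 CPM in che-2 AMsh and 14.1, 1.24 and 1.04 CPM in wild type AMsh.

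The group around spig-5 (chromosome V, 14308485 to 14325539) held changes of both signs. F47B8.13, F47B8.14 and F47B8.18, 10.5 to 16.3 kb downstream of the start of spig-5, fell. F47B8.13 was at 0, 0 and 0.144 CPM in che-2 AMsh and at 20.9, 13.6 and 7.82 CPM in wild type AMsh (log2 fold change -7.86, adjusted p = 0.0146). F47B8.3 and F47B8.4, which lie among the 3 falls, were not called, with log2 fold changes of -0.84 and -1.24. Between spig-5 and the falls, ddn-3 (4.31), F14D7.8 (5.58) and F47B8.2 (0.38) were not called either. F14D7.8 was at 1.96, 15.2 and 13.6 CPM in che-2 AMsh and 0, 0 and 0.624 CPM in wild type AMsh. The nearest gene on the other side, spig-4, also had higher levels without passing.

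spp-18 (chromosome IV, from 9593693) fell with F27C8.2 and aat-1 over 8.0 kb. F27C8.2 had no count in che-2 AMsh and was at 9.63, 5.4 and 4.04 CPM in wild type AMsh. aat-1, which encodes an amino acid transporter subunit, was at 0.134, 0 and 0.0361 CPM in che-2 AMsh and at 6.69, 9.27 and 14.7 CPM in wild type AMsh (log2 fold change -7.32, SE 1.06, adjusted p = 0.0154). The ZK218.5, ZK218.7 and ZK218.11 group on chromosome V differed from the collagens in the order of the cultures. ZK218.5 was at 0, 0.112 and 0.253 CPM in che-2 AMsh and at 64.1, 357 and 159 CPM in wild type AMsh, so E30 was its lowest wild type library (log2 fold change -10.51, SE 1.27, adjusted p = 0.00959). C06H5.12 and C06H5.14, each with no count in che-2 AMsh, flank fbxa-156 and fbxa-157, F-box genes with log2 fold changes of -0.15 and -0.67.

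**Figure D3:**
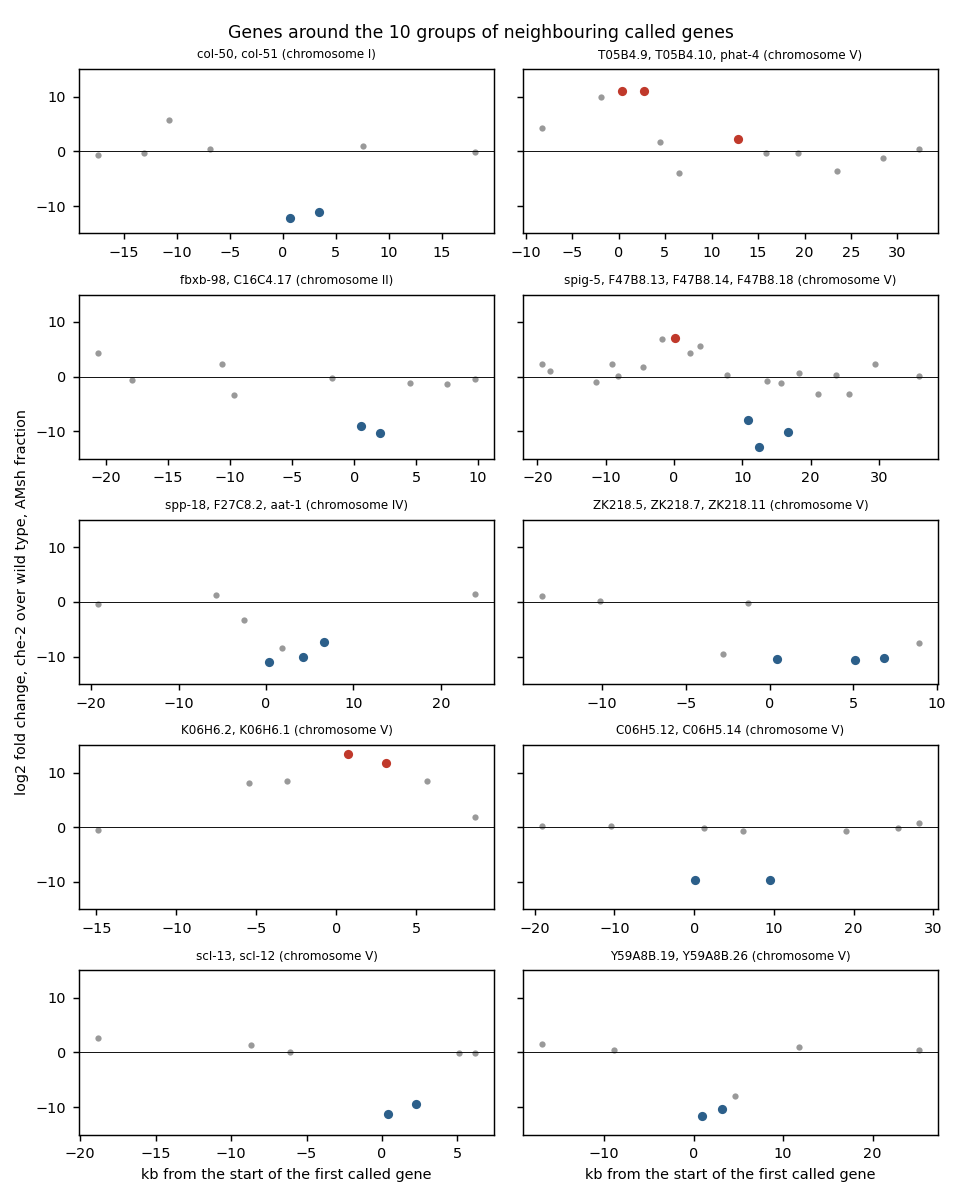
Log2 fold change (che-2 over wild type, AMsh fraction) of tested genes around the 10 groups of called genes that lie within 20 kb of each other, against the distance in kb from the start of the first called gene of the group. Red points are genes that rose, blue points genes that fell and grey points genes that were not called, and the panel of spig-5 holds both colours.

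The panels show that uncalled neighbours varied widely: of 73 that were tested, 36 had a log2 fold change within 1 of 0. ZK218.3, near ZK218.5, was at -9.51 without passing (adjusted p = 0.174), and ZK218.4, which lies between them, was at -0.25. Most other rises were smaller, with log2 fold changes from 1.92 (C05D11.5) upward. Y43F8A.2 was at 35.1, 42.1 and 30.9 CPM in che-2 AMsh and at 5.57, 5.23 and 3.70 CPM in wild type AMsh (log2 fold change 2.90, SE 0.37, adjusted p = 0.00959). W03F11.4 was at 40.5, 70.1 and 31.4 CPM in che-2 AMsh and at 6.6, 5.85 and 7.41 CPM in wild type AMsh (log2 fold change 2.84, SE 0.40, adjusted p = 0.0146). Y18H1A.15 was at 5.88, 12.0 and 4.59 CPM in che-2 AMsh and at 0.267, 0.288 and 0.250 CPM in wild type AMsh (log2 fold change 4.77, SE 0.73, adjusted p = 0.0211). In each case the spread within a genotype was small beside the gap between genotypes. aqp-11, an aquaporin family gene that counts in 2 of the lists, was at 17.3, 27.7 and 20.2 CPM in che-2 AMsh and at 6.02, 3.13 and 2.75 CPM in wild type AMsh (log2 fold change 2.45, SE 0.45, adjusted p = 0.0383). kel-10, a kelch-repeat gene, was at 26, 52.3 and 36.8 CPM in che-2 AMsh and at 6.06, 2.51 and 7.32 CPM in wild type AMsh (log2 fold change 2.86, adjusted p = 0.0355).

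Sperm, germ line and yolk protein genes had positive median log2 fold changes in the AMsh fraction, and most did not pass. Of 109 major sperm protein and other sperm family genes, 1 rose and 0 fell, 64 were higher and 0 lower at an unadjusted p under 0.05, and the median log2 fold change was 2.35. The list summed to 2703, 14842 and 6847 CPM in che-2 AMsh and to 1521, 1422 and 1896 CPM in wild type AMsh, without overlap. The call was comp-1, which acts in sperm competitiveness, at 5.8, 13 and 10.5 CPM in che-2 AMsh and 0.0446, 0.536 and 0.416 CPM in wild type AMsh (log2 fold change 4.85, SE 0.91, adjusted p = 0.0405). In the non-AMsh fraction 64 sperm genes were also higher and none lower at an unadjusted p under 0.05, with 0 called. Without the libraries of code E30, 27 sperm genes rose, and without both E30 AMsh libraries none did. Of 26 germ line and oocyte genes and 4 vitellogenins, the yolk proteins, none was called, with median log2 fold changes of 0.96 and 3.43. The sums of both lists overlapped between the genotypes, and che-2 E35 was the highest library. Germ line and oocyte genes summed to 1016, 2652 and 1262 CPM in che-2 AMsh and to 498.5, 1119 and 768 CPM in wild type AMsh. Vitellogenins summed to 28.6, 601 and 71.0 CPM in che-2 AMsh and to 54.7, 7.25 and 34.2 CPM in wild type AMsh.

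None of the 36 intraflagellar transport genes was called, 11 were higher and 0 lower at an unadjusted p under 0.05, and the median log2 fold change was 1.51. They summed to 342, 869 and 350.3 CPM in che-2 AMsh and to 202, 220.1 and 209 CPM in wild type AMsh. The sums did not overlap, and che-2 E35 was the highest library. In the non-AMsh fraction the list summed to 273, 374 and 261 CPM in che-2 and to 144, 209 and 106 CPM in wild type. These sums did not overlap either (median log2 fold change 0.90). dyf-3, a transport particle subunit gene, had the smallest p, at 23.7, 73.7 and 43.3 CPM in che-2 AMsh and 15.6, 11.7 and 8.28 CPM in wild type AMsh (log2 fold change 1.98, adjusted p = 0.118). Of 22 transition zone and ciliary membrane genes none was called (median log2 fold change 0.42). No gene was called among 276 chemoreceptor genes, 134 neuropeptide genes, 203 nuclear hormone receptors, 82 cytosolic ribosomal protein genes, 161 detoxification enzymes or 17 endoplasmic reticulum folding genes.

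**Figure D4:**
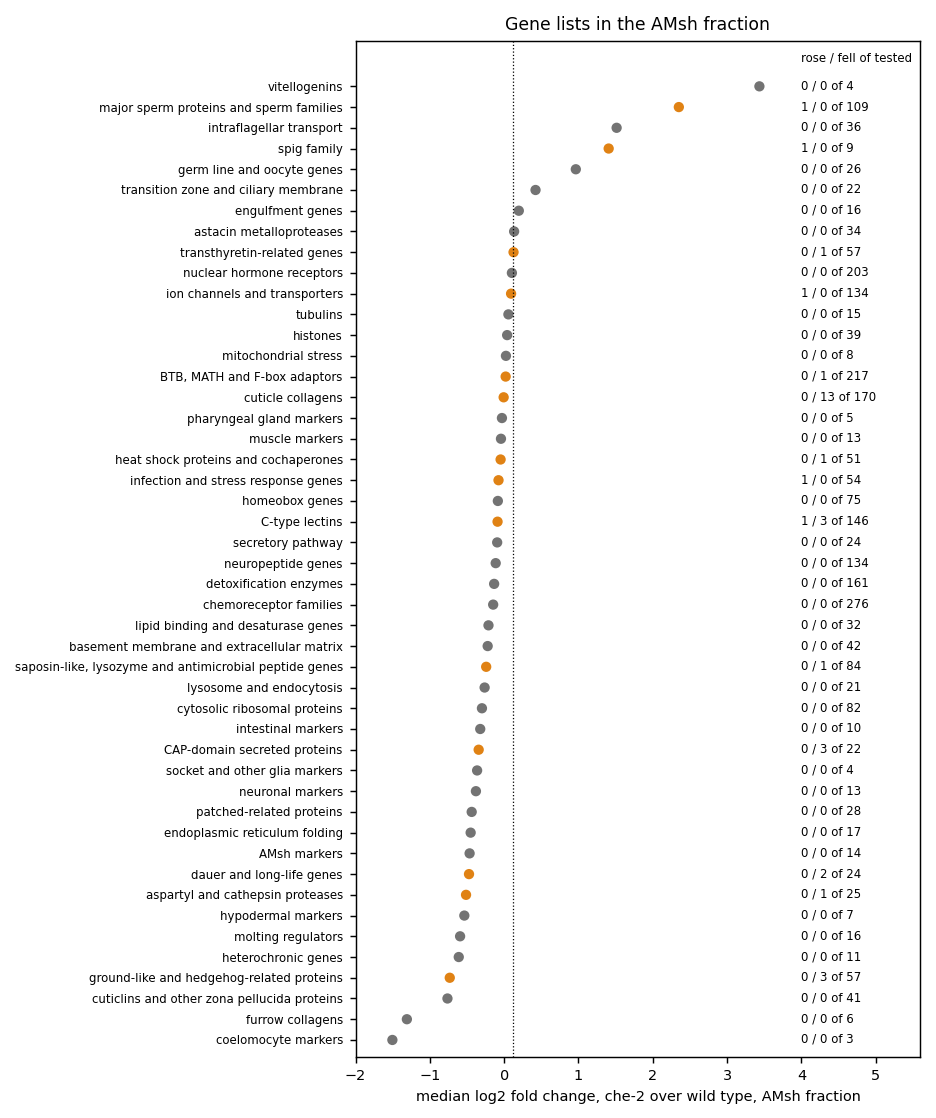
Median log2 fold change (che-2 over wild type, AMsh fraction) of the tested members of each gene list, with the number that rose and fell beside it; orange lists hold a called gene, grey lists none, and the dotted line is the median of all tested genes, 0.12. Vitellogenins, sperm and intraflagellar transport genes have the highest medians, and coelomocyte markers and furrow collagens the lowest.

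The plot of list medians shows that calls and medians did not go together, since the 13 called collagens sit in a list with a median near 0. Markers of other cell types gave no call among 13 neuronal, 13 muscle, 10 intestinal, 7 hypodermal, 5 pharyngeal gland and 4 other glial genes. Of the pharyngeal gland list, phat-3 had the smallest p (log2 fold change 6.46, adjusted p = 0.0785). The called gene phat-4 is not a member of that list. The 3 coelomocyte markers had the lowest median (log2 fold change -1.50), with cup-4 at 51.4, 34.4 and 26 CPM in che-2 AMsh and 113, 166 and 81.6 CPM in wild type AMsh, without overlap and without passing (adjusted p = 0.194). Of the 77 called genes, 31 belonged to one of the 47 lists and 46 to none.

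Changes in the AMsh fraction had the same direction in the non-AMsh cells of the same cultures. This held for all 27 rises and all 50 falls, against 72.0% of all tested genes with the same sign in both fractions, and 26 of the rises and 49 of the falls did not overlap there, against 12.2% of tested genes that did not overlap with che-2 higher and 10.0% with che-2 lower. The non-AMsh comparison called 24 genes (0.144%), 6 higher (0.0359%) and 18 lower (0.108%), and 1721 (10.3%) differed at an unadjusted p under 0.05, 970 higher (5.81%) and 751 lower (4.50%). With the code as a block, by which the non-AMsh libraries were paired, 167 non-AMsh genes were called. Of the 24, 23 were also called in the AMsh fraction, 29.9% of the AMsh calls and 95.8% of the non-AMsh calls, all in the same direction. Both comparisons share their cultures, so this overlap is not independent of the AMsh result. In the genotype with the higher level, the AMsh mean lay within 2-fold of the non-AMsh mean for 47 of the 50 falls.

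col-37, for example, was at 0.348, 10.6 and 2.72 CPM in che-2 non-AMsh and at 8346, 2016 and 223 CPM in wild type non-AMsh, close to its AMsh levels. spp-18 was at 0, 0.766 and 0 CPM in che-2 non-AMsh and at 705, 304 and 286 CPM in wild type non-AMsh. WBGene00017211, the called gene with the smallest non-AMsh rise, was at 5.88, 2.25 and 6.90 CPM in che-2 AMsh and 0.134, 0.206 and 0.374 CPM in wild type AMsh, whereas in non-AMsh cells it was at 4.93, 9.84 and 15.0 CPM in che-2 and 2.38, 3.82 and 8.39 CPM in wild type. R08C7.8 had a log2 fold change of 6.49 in AMsh (adjusted p = 0.0383) and 2.02 in non-AMsh (adjusted p = 0.488).

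The test of the difference between the AMsh and non-AMsh changes called 0 genes by edgeR, with 281 (1.68%) at an unadjusted p under 0.05, 175 higher (1.05%) and 106 lower (0.635%). Of these, 4 were among the rises and 5 among the falls. DESeq2 called 4 for this difference, srbc-51, npr-11, K10C2.2 and W03G9.9, and none of them is among the 77. No called gene was therefore shown to change by a different amount in AMsh than in the other cells, and the smallest adjusted p of this difference among the 77 was 1.00. This fit treated both fractions of a culture as independent, although they deviated together (correlation 0.25 to 0.639 in che-2 and 0.307 to 0.359 in wild type). With the culture as a block, an alternative chosen after seeing the data, edgeR called 0 genes again, with 273 at an unadjusted p under 0.05, 16 of them among the 77.

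**Figure D5:**
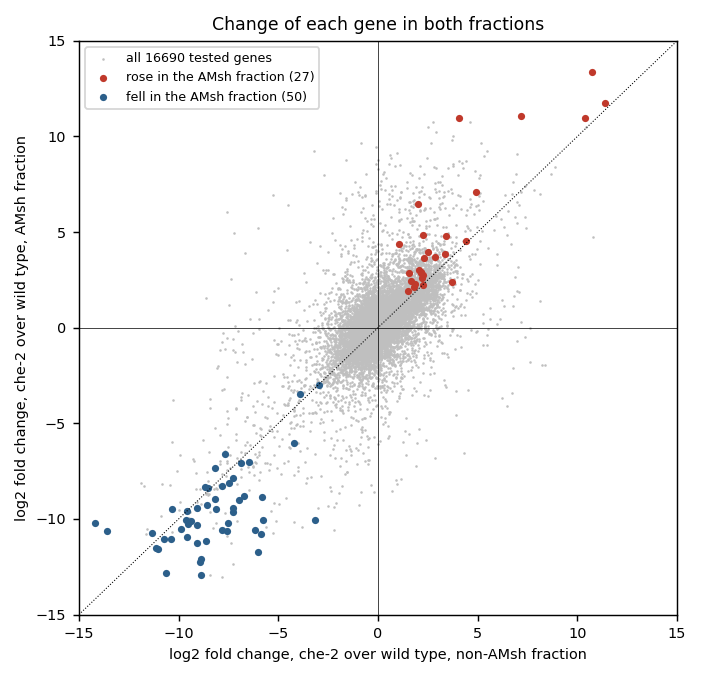
Log2 fold change (che-2 over wild type) of each tested gene in the AMsh fraction (y axis) against the same in the non-AMsh fraction (x axis), with the 27 genes that rose in red, the 50 that fell in blue and equal change on the dotted line. The called genes lie in the quadrants of equal sign, and both fractions come from the same cultures.

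In the plot of both fractions, spig-5, with log2 fold changes of 7.09 in AMsh and 4.91 in non-AMsh, and dmd-10, with -10.03 and -3.16, lie off the line of equal change. F57E7.4, with 4.51 and 4.43, lies on it. The large fitted values of genes with few or no counts in 1 genotype depend on the model's prior count, so their distance from the line is no measure of how far the fractions differ.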

How the data were processed

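Per the submitters' processing notes, reads were handled with CASAVA 1.8.2 and FastQC, aligned with STAR 2.3 to WBcel235 and counted with featureCounts. The deposited values are whole-number counts per gene and library, and the deposited gene length column was not used. The strand setting is not given in the sources used here, so overlapping and antisense genes cannot be told apart. Totals of the 12 libraries were 15420762 to 26019499 counts. Of 46726 genes, 43623 matched a symbol in the reference table, and 22353 had no count.

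Counts were TMM-scaled, filtered with filterByExpr (16690 genes) and fitted over all 12 libraries in 4 groups with edgeR 4.0.16 (quasi-likelihood, R 4.3.3; residual degrees of freedom 8, common coefficient of biological variation 0.732), with 2-sided p values adjusted by Benjamini-Hochberg over all genes at 0.05. The package's default, legacy form of the quasi-likelihood was used, and this form was chosen after the counts of both forms had been seen. The model was also run on simulated counts, with independent libraries and changes in the AMsh groups only. That simulation cannot show how the shared cultures of the fractions affect the p values. Alternatives used limma 3.58.1 and DESeq2 1.42.0; lists and figures used Python 3.11.15, pandas 2.3.3 and matplotlib 3.10.9. Codes were taken to pair groups where every same-code correlation of deviations was over 0.1, which held in the non-AMsh fraction (3 of 3) and not in the AMsh fraction (0 of 3). The cultures are separate, but the fit treated both fractions of a culture as independent libraries. Its estimate of the spread, which the p values of the AMsh calls use, therefore counts each culture once per fraction. These p values can overstate how well the spread between cultures is known. Floors (3 counts) and intervals reflect counting error only, since the amplified libraries carry no molecular identifiers and their reads are not independent. Called genes were accounted for in full, and per-library values were given for those with the largest changes, list members, AMsh markers and neighbours within 20 kb. The comparison and the gene lists were chosen with earlier results of these data known, and the spig list was added after its values were seen.

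The titles of the E36 libraries mostly repeat the replicate number of E30, and the E35 columns carry E36 in their names, so libraries were assigned by the code in title and header. No replicate pair agreed within sampling noise (chi-square per gene of at least 129.6).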

Additional observations from a re-analysis of the deposited data

Results flagged for a closer look

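mksr-1, a gene of the ciliary transition zone, was flagged because all its che-2 libraries lay above wild type in the AMsh fraction and below wild type in the non-AMsh fraction. Only called genes, che-2, AMsh markers, spig-4, spig-9 and the smallest-p member of each list without a call were searched for this. Of all 16690 tested genes, 1885 had che-2 higher without overlap in AMsh and 1674 had che-2 lower in non-AMsh. How many had both was not determined. It was at 1.87, 10.5 and 4.55 CPM in che-2 AMsh and at 0, 0.330 and 1.75 CPM in wild type AMsh, all che-2 libraries higher. In non-AMsh cells it was at 0.812, 0.766 and 0.422 CPM in che-2 and at 7.84, 2.97 and 1.38 CPM in wild type, all che-2 libraries lower. The difference between the AMsh and non-AMsh log2 fold changes was 5.62 (unadjusted p = 0.00961, adjusted p = 1.00 by edgeR) and did not pass, nor did the change in AMsh (log2 fold change 3.01, adjusted p = 0.359) or in non-AMsh (-2.60, adjusted p = 0.536). Several of these levels rest on few counts. Groups of 3 libraries were not examined for single outlying samples.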

How the results depend on the processing

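Against 77 calls (27 higher, 50 lower), no filter on low counts gave 198 (57 and 141), the edgeR 4 form of the quasi-likelihood 240 (111 and 129), DESeq2 883 (496 and 387) and the 6 AMsh libraries alone 1 (0 and 1). The listing of alternatives named the edgeR 4 form first, and the legacy form was reported as the package default after both counts were known. Without wild type AMsh E30 and che-2 AMsh E35 there were 26 calls (6 and 20), without code E30 257 (183 higher), and without both E30 AMsh libraries, an alternative chosen after seeing the data, 27 (13 and 14). Leaving out single libraries gave 0 to 112 calls, 0 to 36 higher and 0 to 76 lower. Relative log expression and upper-quartile scaling, a 1 CPM filter and limma-voom moved the total to 75, 80, 80 and 75, of which 74, 77, 77 and 46 were among the 77. By the deviations from the group means, the codes pair the genotypes in the non-AMsh fraction (correlation 0.115 to 0.275 for the same code, -0.218 to 0.0122 for others) and not in the AMsh fraction (0.0141 to 0.0258, and -0.0318 to 0.00925), where each library still correlated best with its own code. With the code as a replicate block there were 218 AMsh calls (112 and 106, 75 of the 77 among them) and 167 non-AMsh calls. For non-AMsh, the 24 calls became 14 with relative log expression, 209 with no filter, 128 with the edgeR 4 form, 753 with DESeq2, 974 with limma-voom, 290 without the 2 libraries with the fewest genes, 39 without code E30 and 47 without both E30 AMsh libraries. Leaving out single libraries gave 0 to 102. The difference between fractions gave 4 calls with DESeq2 and 0 under each other alternative, a replicate block by code or by culture and the omission of single libraries included.

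Of 1848 results of called genes under alternatives, 1138 passed, 710 did not and 0 reversed, and no gene passed under all 24. The 0 reversals say little, since no called gene had overlapping AMsh libraries. Log2 fold changes of uncalled AMsh genes reversed as follows; the cause was not tested. With limma-voom: pros-1 -0.11, che-14 -0.042, spig-9 -0.55, F16F9.3 -0.10, kcc-3 -0.44. Without wild type AMsh E30 and che-2 AMsh E35: pros-1 -0.91, spig-9 -0.78, F16F9.3 -0.36, kcc-3 -0.67, ztf-16 -0.17. Without code E30, and without both E30 AMsh libraries, che-14 was at -0.88. Over single omissions, pros-1 ran between -0.33 and 1.37, che-14 between -0.37 and 0.63, ttx-1 between -0.73 and 0.30, ver-1 between -9.99 and 0.58 and spig-9 between -0.46 and 0.74. F16F9.3 ran between -0.067 and 1.06, kcc-3 between -0.38 and 0.47, ztf-16 between -0.14 and 0.67 and T02B11.3 between -1.35 and 0.038. With 3 cultures per genotype, genes at 0 in 1 genotype are limited to the bounds given.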
